A study of Mus musculus with 6 samples.

Results

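The kinetochore and spindle checkpoint genes described here are 38 genes, listed by symbol, that encode the protein machinery by which chromosomes attach to the mitotic spindle. The list was set by gene symbol and not by a threshold on values, but it was chosen with earlier results of these data known. All 38 were among the 22026 gene symbols measured by RNAseq in choroid endothelial cells (ECs), the cells that line the vessels of the layer beneath the retinal pigment epithelium (RPE). ECs were compared between postnatal day 5 (P5) and postnatal day 30 (P30), with 3 independent isolations at each age. The animals were untreated mice on a 129/B6 background, the RPE/choroid of 7 animals was pooled for each isolation, and no genotype differed between the ages. ECs were labelled in the living animal with an antibody to VE-Cadherin and sorted by flow cytometry, so that each value stands for a sorted pool and not for single cells. Per the methods of the study, P5 animals received less antibody than P30 animals and were anaesthetized by cold, and these differences in handling cannot be told apart from age. In such bulk samples, fewer cells of a type and less RNA per cell cannot be told apart.

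The kinetochore is built on the centromere of each chromosome during cell division. Its inner layer (the CENP proteins) sits on centromeric chromatin, and its outer layer (the NDC80 complex and its partners) holds the ends of microtubules. The spindle checkpoint proteins Bub1, BubR1, Mad1, Mad2 and Mps1 hold back anaphase until every chromosome is attached, the chromosomal passenger complex corrects faulty attachments, and Cdc20, securin and separase act at the release of the sister chromatids. Most of these genes are transcribed in the G2 and M phases and are little expressed in cells that do not divide, whereas a few of the proteins have duties outside mitosis.

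Levels were the deposited FPKM, a fragment count scaled to transcript length, so that genes of different length can be compared. Libraries were scaled to each other by GC and upper quartile normalization. Differences between the ages are given on the log2(FPKM + 1) scale, P30 minus P5, from a limma fit over 12481 genes, each of which reached an average of 5 FPKM at P5, at P30 or at both. This scale understates the change of genes with low values, and the order of genes with P30 values near 0 depends on the number added before the logarithm (the pseudocount). A gene was called when its adjusted p was under 0.01 and its mean FPKM + 1 differed at least 2-fold. Depth could not be read from FPKM and is unknown, and between 33.4% and 37.3% of the symbols were listed at 0 in an isolation. A value of 0 is therefore given as listed. Summed markers of ECs (Pecam1, Cdh5, Kdr, Tek, Tie1, Emcn, Erg and Egfl7) ranged from 15677 to 16541 FPKM at P5 and from 19104 to 22066 at P30, with no EC marker at 0. RPE markers summed to 144, 65.5 and 72.0 FPKM in P5 replicates 1, 2 and 3 and to 3796, 2109 and 495 at P30.

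Nearly all of the 38 genes were higher at P5. All 38 passed the minimum, and 32 were called higher at P5, against 726 of all genes tested (5.82%). No member was called higher at P30, against 735 of all genes tested (5.89%), and 6 were not called. The median log2 difference was -4.12 over the 38 genes and -0.10 over all genes tested. In each of the 32 genes called, every P5 isolation was above every P30 isolation, which the limits of the call favour. This separation was found in 35 of the 38 members and in 4123 of the 12481 genes tested. Summed over these 32, FPKM was 1378, 1883 and 2238 in the P5 isolations and 131, 164 and 158 in the P30 isolations, so that the P30 mean was 8.23% of the P5 mean. The genes called had P5 means between 16.2 and 147 FPKM. Without P5 replicate 2 the count was 27, and without P5 replicate 3 it was 25.

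**Figure D1:**
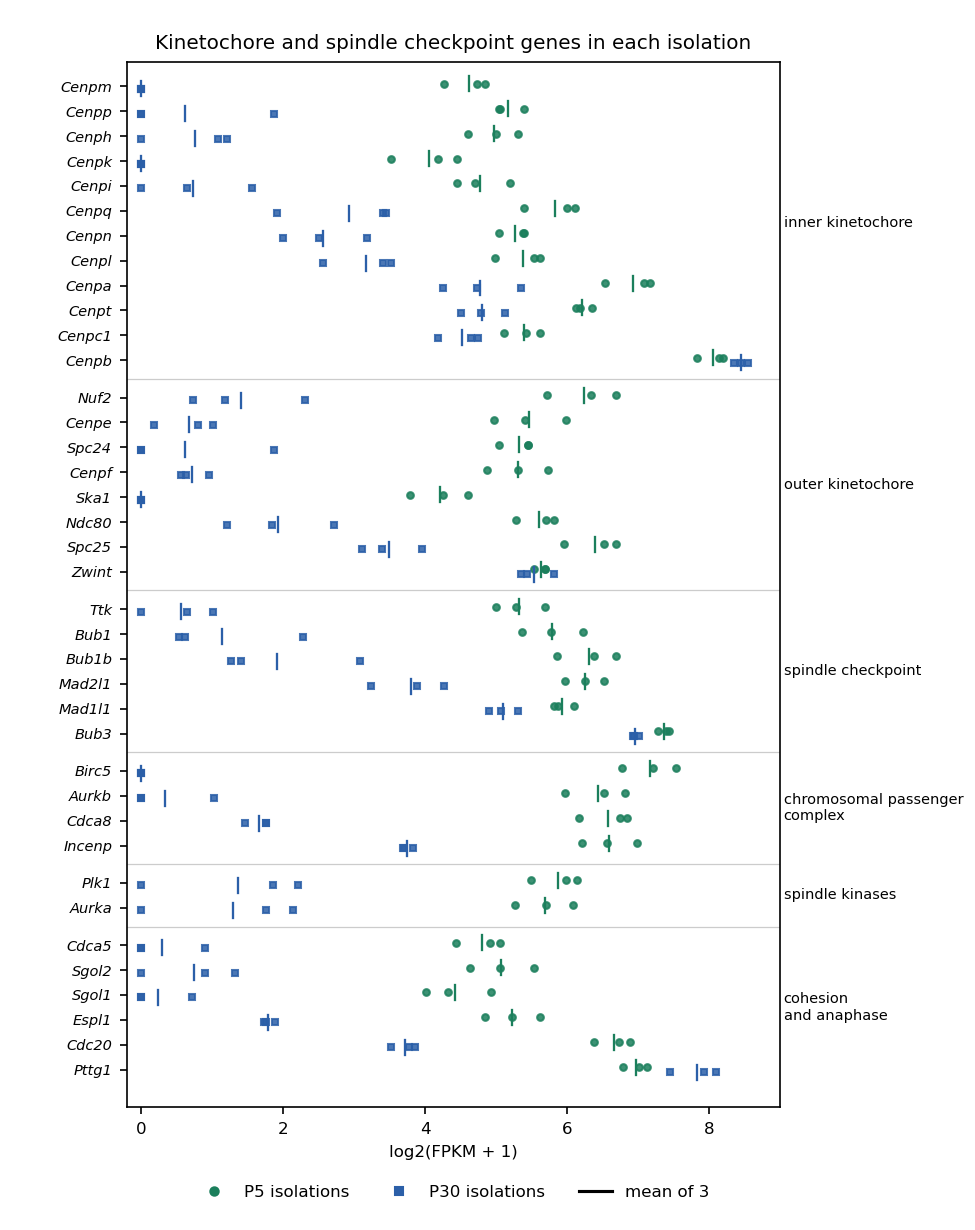
Level of each of the 38 genes as log2(FPKM + 1) on the horizontal axis in the 3 P5 isolations (circles) and the 3 P30 isolations (squares), with the mean of 3 as a vertical bar and the genes grouped by role. The P5 and P30 points stand apart in the 32 genes called, while Zwint overlaps and Cenpb and Pttg1 lie higher at P30.

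What remained at P30 was uneven. Of the 32 genes called, 21 had a P30 mean under 5% of the P5 mean, 9 kept over 10% and 3 kept over 20%, namely Cenpa with 22.6%, Cenpl with 20.1% and Cenpt with 37.4%. Cenpk, Cenpm, Ska1 and Birc5 were listed at 0 in all 3 P30 isolations. A further 5 genes were listed at 0 in 2 P30 isolations, 6 in 1 and 23 in none. P30 replicate 1 held the most zeros, 15 among the 32 genes, against 5 in replicate 2 and 8 in replicate 3. Over all genes tested the order was the same, with 250, 100 and 201 zeros in P30 replicates 1, 2 and 3. No member was listed at 0 at P5.

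Promoters of the members were read from RefSeq to show what the genes share in sequence. A promoter here is the 300 bases from 250 before to 50 after the annotated start (GRCm38.p6), and 39 promoters of 34 members were found, among them 31 promoters of 28 genes called higher at P5. The letters of 3 kinds of element known from cell cycle promoters were searched on both strands. These were the CHR (TTTGAA), at which the DREAM and MuvB complexes act, the CCAAT box (CCAAT), bound by NF-Y, and a word of the E2F site, either TTTGGCG or the variant of it that reads TTTCCCG or the other variant, which reads TTTCGCG. The CCAAT box was found in 24 of the 31 promoters (77.4%) and in 37.4% of the 32544 promoters of the whole table. The CHR was found in 14 of 31 (45.2%), against 17.8% in the whole table, and both elements in 12 of 31 (38.7%), against 6.92%. E2F words were found in 6 of 31 (19.4%), against 5.61%. Among the 8 promoters of members not called, 4 held a CCAAT box, 2 (both of Bub3) a CHR with a CCAAT box and 1 (Cenpb) an E2F word. In the 31 promoters, 14 of the 15 CHR matches began within 50 bases of the start, as did 25.4% of the CHR matches in the whole table. Some genes supplied several promoters, so that the promoters are not all of separate genes, and the 2 of Bub3 overlap in sequence. A match to these letters is a description of the window and not evidence of a bound site.

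The sequences of 5 promoters, chosen after their values were seen, show the range. Each was located in mm9 by its 1 exact match, is written 5′ to 3′ on the strand of the gene, and has the matched letters in capitals (ATTGG is the CCAAT box, TTCAAA the CHR and CGCGAAA an E2F word on the other strand). Cdca8 (chr4:124614112-124614411, minus strand), Cdc20 (chr4:118109899-118110198, minus strand) and Ttk (chr9:83728046-83728345, plus strand) hold CHR and CCAAT letters close to the start. Birc5 (chr11:117710301-117710600, plus strand) had the largest difference of the 38 genes and holds only an E2F word, and Pttg1 (chr11:43239434-43239733, minus strand), which was not lower at P30, holds none. The starts used lie 0 bases (Cdca8, Ttk, Pttg1), 9 bases (Cdc20) and 14 bases (Birc5) from the nearest GENCODE start of the gene. For Cdca8 and Pttg1 that start is an inner one. Their windows lie wholly within the annotated genes (chr4:124595709-124616555 and chr11:43233752-43239753). Bases before the outermost starts of Cdca8 and Pttg1 were not searched. The matches of Cdca8 and the lack of matches in Pttg1 hold for these windows only. In Cdca8 the CHR at position 14 overlaps the CCAAT box at 19 by 1 letter, the only such overlap among the 39 promoters.
Cdca8: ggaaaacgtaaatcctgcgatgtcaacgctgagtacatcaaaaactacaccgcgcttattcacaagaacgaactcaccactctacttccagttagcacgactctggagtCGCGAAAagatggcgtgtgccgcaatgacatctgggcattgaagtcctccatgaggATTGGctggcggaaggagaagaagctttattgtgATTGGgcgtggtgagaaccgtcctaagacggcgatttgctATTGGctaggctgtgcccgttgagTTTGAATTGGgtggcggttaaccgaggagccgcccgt
Cdc20: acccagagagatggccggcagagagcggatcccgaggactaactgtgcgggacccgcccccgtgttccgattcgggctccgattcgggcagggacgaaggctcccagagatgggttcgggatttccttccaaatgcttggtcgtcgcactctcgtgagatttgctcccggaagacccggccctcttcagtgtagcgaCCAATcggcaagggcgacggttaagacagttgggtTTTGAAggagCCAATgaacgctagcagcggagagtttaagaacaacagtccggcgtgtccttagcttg
Ttk: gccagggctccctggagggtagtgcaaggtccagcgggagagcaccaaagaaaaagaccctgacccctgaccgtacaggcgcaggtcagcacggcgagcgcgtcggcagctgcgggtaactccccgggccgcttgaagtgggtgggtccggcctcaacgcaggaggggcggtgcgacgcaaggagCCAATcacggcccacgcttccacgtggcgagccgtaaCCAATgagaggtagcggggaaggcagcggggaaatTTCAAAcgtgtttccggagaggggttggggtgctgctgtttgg
Birc5: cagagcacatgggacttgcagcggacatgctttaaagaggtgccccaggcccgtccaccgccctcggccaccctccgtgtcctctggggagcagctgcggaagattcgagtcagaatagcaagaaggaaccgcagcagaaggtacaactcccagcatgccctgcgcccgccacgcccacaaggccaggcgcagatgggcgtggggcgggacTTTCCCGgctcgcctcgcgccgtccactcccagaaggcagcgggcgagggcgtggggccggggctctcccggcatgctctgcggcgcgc
Pttg1: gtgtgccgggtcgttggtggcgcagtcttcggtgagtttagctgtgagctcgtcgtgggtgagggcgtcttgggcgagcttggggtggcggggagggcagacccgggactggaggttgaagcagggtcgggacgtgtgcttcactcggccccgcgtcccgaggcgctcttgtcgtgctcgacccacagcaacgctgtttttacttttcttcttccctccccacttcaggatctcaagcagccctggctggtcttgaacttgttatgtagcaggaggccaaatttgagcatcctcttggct

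The inner kinetochore supplied 12 of the genes, and 10 were called higher at P5 (median log2 difference -2.81). Summed over the 12, these genes reached 774 ± 68.4 FPKM at P5 and 451 ± 22.0 FPKM at P30 (SD, n = 3 each). Cenpb carried most of the P30 sum. Cenpm, a subunit of the constitutive centromere network, had the largest difference of the layer on the log2(FPKM + 1) scale, with 18.3, 25.6 and 27.7 FPKM at P5 and 0, 0 and 0 at P30 (log2 difference -4.62, SE 0.37, adjusted p = 0.000262). Its neighbours in that network, Cenph, Cenpi, Cenpk and Cenpp, differed by between -4.54 and -4.04, and each was listed at 0 in at least 1 P30 isolation. Cenpq and Cenpn differed less, by -2.91 and -2.71. The calls of Cenpk and Cenpq were lost without P5 replicate 2 (adjusted p of 0.0115 and 0.0162) and without P5 replicate 3 (0.0105 and 0.0181).

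Cenpa, Cenpt and Cenpl kept the most at P30 among the inner genes called. Cenpa, the histone H3 variant that marks the centromere, was at 91.6, 135 and 143 FPKM at P5 and at 25.6, 18.1 and 39.8 at P30 (log2 difference -2.15, adjusted p = 0.00179). Cenpt, a histone-fold protein that links DNA to the NDC80 complex, was at 68.8, 71.3 and 80.4 FPKM at P5 and 21.8, 26.7 and 34.0 at P30, the smallest difference of the 32 genes called (-1.41, SE 0.18, adjusted p = 0.00138). Cenpl differed by -2.22. The calls of Cenpa, Cenpt and Cenpl were lost without P5 replicate 2 (adjusted p of 0.0117, 0.0101 and 0.0147) and without P5 replicate 3 (0.0132, 0.0111 and 0.0149). Exons of Cenpt overlap Tsnaxip1 and those of Cenpq overlap Mut on the opposite strand, and the counting is not stated to have used strand, so that reads of these pairs cannot be told apart.

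Cenpc1 and Cenpb were not called. Cenpc1, which bridges the centromere and the outer kinetochore, was at 33.8, 41.8 and 48.3 FPKM at P5 and 25.7, 24.1 and 17.2 at P30, with no overlap between the ages (-0.86, 95% interval -1.36 to -0.37, adjusted p = 0.0169), and it was called higher at P5 when values were scaled to the EC markers. Cenpb, which binds a sequence box in centromeric satellite DNA, was the most abundant of the 38 genes and was at 292, 280.2 and 226 FPKM at P5 and 326, 373 and 350.4 at P30. All P30 values exceeded all P5 values, but the difference missed both limits (0.40, 95% interval 0.11 to 0.69, adjusted p = 0.038). An exon of Cenpb overlaps Spef1 on the same strand in the annotation of mm9.

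The outer kinetochore supplied 8 genes, of which 7 were called higher at P5 (median -4.40), and their sum was 402 ± 91.1 FPKM at P5 and 63.7 ± 15.1 FPKM at P30 (SD, n = 3 each). Nuf2, a subunit of the NDC80 complex that binds microtubules, had the largest difference of the layer on the log2(FPKM + 1) scale, at 51.6, 79.7 and 102 FPKM at P5 and 1.28, 3.94 and 0.66 at P30 (-4.84, SE 0.44, adjusted p = 0.000378). The large coiled-coil proteins Cenpe, a motor that carries chromosomes along microtubules, and Cenpf differed by -4.79 and -4.59. Spc24 (-4.69), Ska1 (-4.22) and Ndc80 (-3.67) lay in the same range. With a pseudocount of 0.1, Ska1 (-7.47), Spc24 (-7.01), Cenpe (-6.13) and Cenpf (-5.72) had larger differences than Nuf2 (-5.53). Spc25 had the highest P5 level of the layer and kept the most among those called, with 61.3, 91.0 and 103 FPKM at P5 and 7.63, 14.6 and 9.53 at P30 (-2.90, SE 0.28, adjusted p = 0.00044).

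Zwint, which helps bring the checkpoint and dynein adaptor proteins to the outer kinetochore, stood apart from the rest of that layer. It was at 50.9, 50.4 and 45.3 FPKM at P5 and 42.3, 55.6 and 39.7 at P30, so that the ages overlapped. The log2 difference was -0.10, with a 95% interval from -0.48 to 0.27 (adjusted p = 0.634), which does not reach 2-fold in either direction.

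The 4 subunits of the NDC80 complex, Ndc80, Nuf2, Spc24 and Spc25, work as a single rod. At P5 their shares of the summed FPKM were close between isolations, with Spc25 at 33.9 ± 0.44% (SD, n = 3), Nuf2 at 30.7 ± 2.79% (SD, n = 3), Ndc80 at 19.4 ± 1.20% (SD, n = 3) and Spc24 at 16.0 ± 1.73% (SD, n = 3). At P30 the share of Spc25 was 74.6%, 61.3% and 60.5% in replicates 1, 2 and 3, and that of Ndc80 was 12.9%, 11.0% and 35.3%. The P30 shares rest on low values, since Spc24 was listed at 0 in replicates 1 and 3.

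The spindle checkpoint supplied 6 genes, and 4 were called higher at P5 (median -3.42), with a sum of 477 ± 58.1 FPKM at P5 and 176 ± 9.70 FPKM at P30 (SD, n = 3 each). Ttk, the kinase also called Mps1 that starts checkpoint signalling, was at 30.9, 37.7 and 50.4 FPKM at P5 and 0, 1.03 and 0.57 at P30 (-4.76, SE 0.38, adjusted p = 0.000252). The kinase Bub1 was at 40.1, 53.7 and 73.9 FPKM at P5 and 3.85, 0.45 and 0.53 at P30 (-4.64), with replicate 1 the highest P30 isolation. Bub1b, which encodes BubR1, differed by -4.39 and was highest in P30 replicate 2, at 7.47 FPKM. Mad2l1, the subunit that captures Cdc20, kept 17.8% of its P5 mean (-2.45, adjusted p = 0.000881).

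Bub3 and Mad1l1 were the checkpoint genes not called. Bub3, the partner of Bub1 and BubR1, was the most abundant of the group at 167, 172 and 155 FPKM at P5 and 122, 121 and 128 at P30. All P30 values lay below all P5 values, with a narrow spread (-0.41, 95% interval -0.63 to -0.19, adjusted p = 0.0134). Mad1l1, which anchors Mad2 at the kinetochore and at the nuclear pore in interphase, was at 57.5, 67.8 and 55.3 FPKM at P5 and 29.0, 32.7 and 38.5 at P30. Its adjusted p of 0.00615 passed the limit, but the difference of -0.84 (95% interval -1.20 to -0.47) was under 2-fold, which it passed when values were scaled to the EC markers.

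The chromosomal passenger complex is made of the kinase Aurkb, the scaffold Incenp, Birc5 (survivin) and Cdca8 (borealin), and all 4 were called higher at P5 with a median log2 difference of -5.51. Their summed FPKM was 313, 438 and 536 at P5 and 14.3, 14.8 and 15.6 at P30, so that 3.48% of the P5 mean was left. Birc5 (chr11:117710565-117717069 in mm9) had the largest difference of the 12481 genes tested on the log2(FPKM + 1) scale. It was at 108, 147 and 185 FPKM at P5 and at 0, 0 and 0 at P30 (-7.17, SE 0.26, adjusted p = 3.34e-05). Aurkb was at 61.7, 90.8 and 112 FPKM at P5 and 0, 1.05 and 0 at P30 (-6.09). Cdca8 had values of 70.7, 106 and 114 FPKM at P5 and 2.39, 1.75 and 2.39 at P30 (-4.92). Birc5 and Aurkb had the largest differences of the 38 genes with a pseudocount of 0.1, 1 or 5, and Cdca8 was next with 1 and 5 but not with 0.1.

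Incenp differed least within the complex, with 73.0, 94.0 and 125 FPKM at P5 and 11.9, 12.0 and 13.3 at P30 (-2.84, SE 0.21, adjusted p = 0.000204). At P5 the shares of the 4 subunits in the summed FPKM were alike between isolations, at 34.2 ± 0.51% for Birc5, 22.7 ± 1.09% for Incenp, 22.7 ± 1.53% for Cdca8 and 20.4 ± 0.66% for Aurkb (SD, n = 3). At P30 the share of Incenp was 83.3%, 81.1% and 84.7%, and Cdca8 made up most of the rest. Incenp was thus the main transcript of the complex in each of the P30 isolations.

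**Figure D2:**
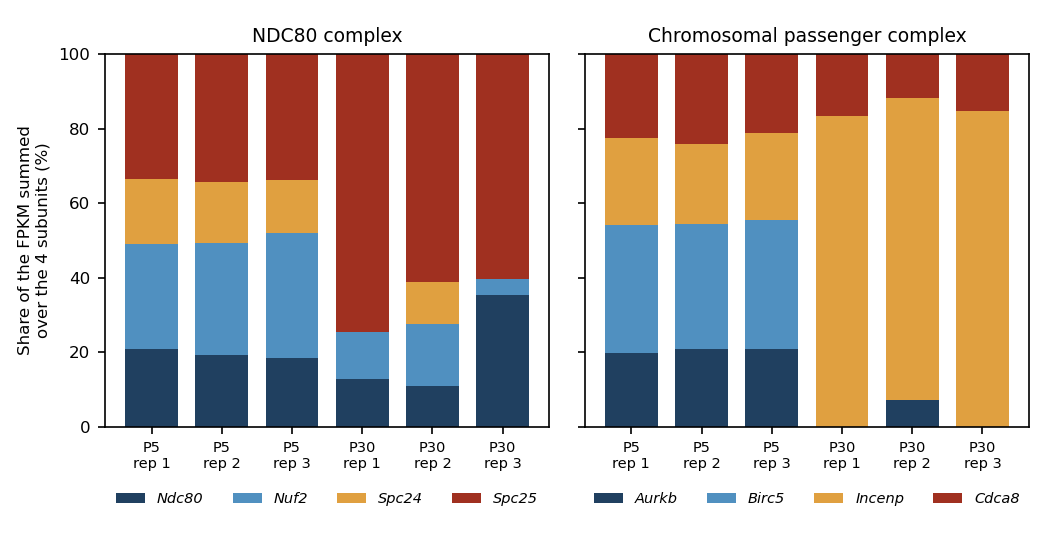
Share of each subunit in the FPKM summed over the 4 subunits of the NDC80 complex (left) and of the chromosomal passenger complex (right), in percent, for each isolation. The P5 bars are alike within each complex, and at P30 Spc25 and Incenp fill at least 60.5% and 81.1% of the bars.

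Aurka and Plk1, kinases that mature the spindle poles and drive entry into mitosis, were both called higher at P5. Plk1 was at 43.9, 62.4 and 69.5 FPKM at P5 and 0, 2.64 and 3.65 at P30 (-4.51, SE 0.56, adjusted p = 0.00122). Aurka was at 37.6, 51.1 and 66.9 FPKM at P5 and 0, 2.38 and 3.43 at P30 (-4.38, SE 0.56, adjusted p = 0.00132). Both genes were listed at 0 in P30 replicate 1 alone, and their intervals were among the widest of the members. Both calls were lost without P5 replicate 3, with adjusted p of 0.0116 for Aurka and 0.0108 for Plk1, and with a pseudocount of 0.1 (0.0121 and 0.0119).

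Of the 6 genes of cohesion and anaphase, 5 were called higher at P5 (median -3.81). Cdca5 (sororin), which keeps cohesin on replicated chromatids, had the largest difference of the group on the log2(FPKM + 1) scale, at 20.7, 29.3 and 32.1 FPKM at P5 and 0, 0.87 and 0 at P30 (-4.50, SE 0.41, adjusted p = 0.000366). The shugoshins Sgol2 and Sgol1, which protect centromeric cohesin, differed by -4.33 and -4.18. Espl1, the protease separase that cuts cohesin, was at 27.8, 36.6 and 48.2 FPKM at P5 and 2.39, 2.70 and 2.31 at P30 (-3.44). Cdc20, the activator of the anaphase-promoting complex, kept 12.1% of its P5 mean, from 82.1, 105 and 117 FPKM to 13.6, 12.7 and 10.5 (-2.95, SE 0.18, adjusted p = 0.000123).

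Pttg1 (securin, chr11:43233752-43239753 in mm9), the inhibitor of separase, was not lower at P30 than at P5. It was at 128, 139 and 109.9 FPKM at P5 and 174, 273 and 243 at P30, with no overlap between the ages. The mean was 1.83-fold higher at P30, and with a log2 difference of 0.85 (95% interval 0.43 to 1.27) and an adjusted p of 0.00981 it passed the limit on p but not that on fold. Without P30 replicate 1, Pttg1 was called higher at P30 (1.04, adjusted p = 0.0026). With Cenpb it was 1 of 2 members, among the 38, whose P30 isolations all lay above the P5 isolations, as did those of 2748 of the 12481 genes tested.

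**Figure D3:**
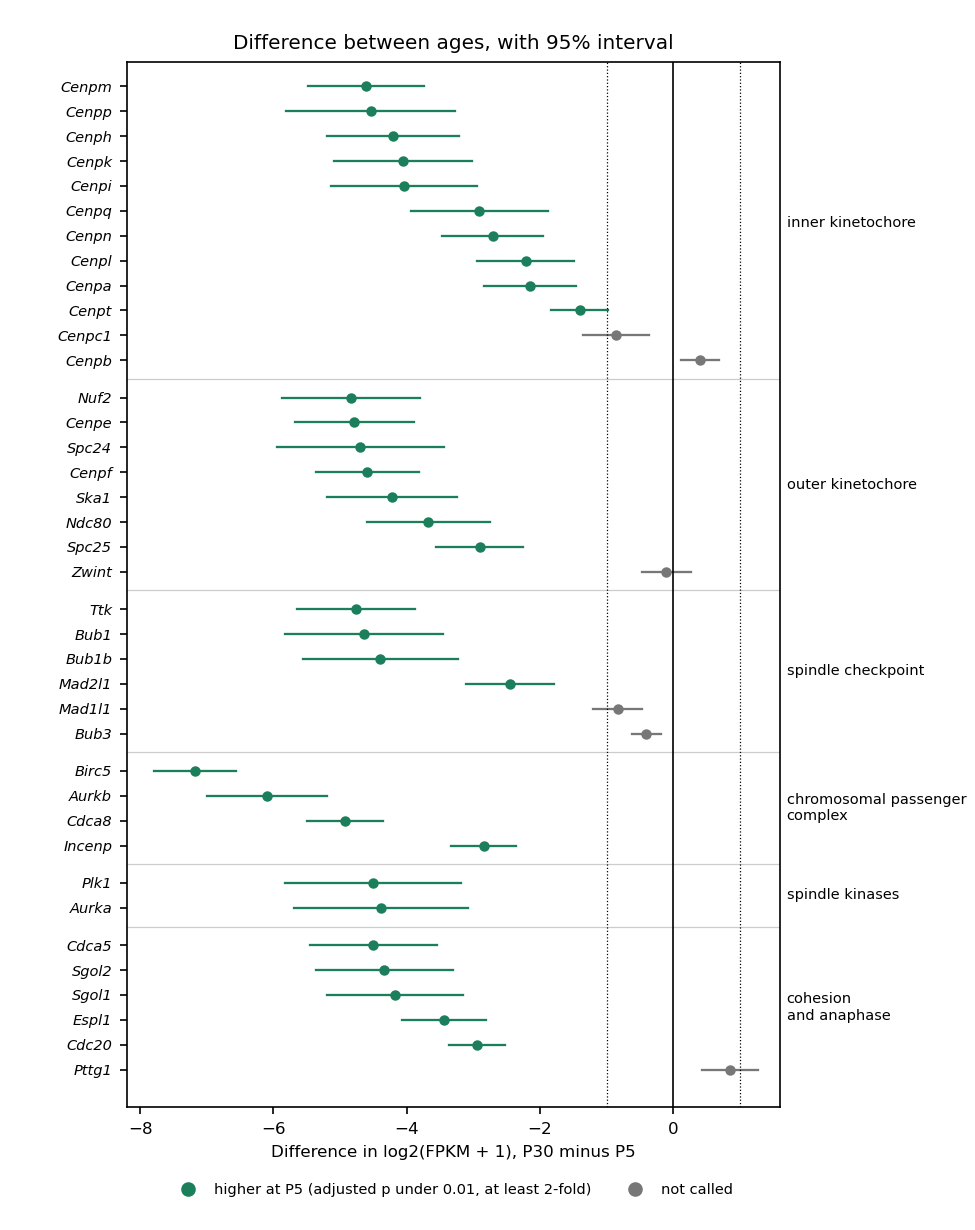
Difference in log2(FPKM + 1), P30 minus P5, on the horizontal axis for each of the 38 genes, with the 95% interval of the limma fit as a line and 2-fold marked by dotted lines. All 32 genes called lie to the left of -1, from -7.17 for Birc5 to -1.41 for Cenpt, and the 6 genes not called lie between -0.86 and 0.85.

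Other genes of the same machinery were read from lists named by function. Of 22 other kinetochore genes listed, 19 were measured and tested. Of these, 13 were called higher at P5 and 0 higher at P30, with a median log2 difference of -2.73. Over all genes tested, 5.82% were called higher at P5 and 5.89% higher at P30, with a median of -0.10. The largest difference in that list was that of Oip5, which helps load Cenpa, with 16.3, 28.0 and 24.4 FPKM at P5 and 0, 0 and 0 at P30 (-4.55). The only difference above 0 was that of Itgb3bp, at 0.01 (95% interval -0.89 to 0.91, adjusted p = 0.986). The Cenpa chaperone Hjurp was called with a smaller difference of -1.33.

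The anaphase-promoting complex, the ubiquitin ligase that Cdc20 activates, had no core subunit called out of 12, where calls over all genes tested were 5.82% higher at P5 and 5.89% higher at P30. The median was -0.31, and in 6 of the 12 all P30 isolations were below all P5 isolations, as in 4123 of the 12481 genes tested. The extremes were Cdc16, at -0.78 (95% interval -1.15 to -0.40, adjusted p = 0.0087), and Anapc11, at 0.35 (95% interval -0.19 to 0.89, adjusted p = 0.26). Of 4 partners of the complex, the ubiquitin-conjugating enzyme Ube2c (-5.12) and the inhibitor Fbxo5 (-2.62) were called higher at P5, whereas Ube2s, the other conjugating enzyme, differed by 0.20 (adjusted p = 0.44).

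Cohesin, the ring that Espl1 cuts and that Cdca5 and the shugoshins protect, was read from 13 genes. Among these, the acetyltransferase Esco2 (-4.47) and the deacetylase Hdac8 (-1.04) were called higher at P5 and 0 were called higher at P30, with a median of -0.40. Calls over all genes tested were 5.82% higher at P5 and 5.89% higher at P30. In 9 of the 13 all P30 isolations were below all P5 isolations, as in 4123 of the 12481 genes tested. The other acetyltransferase, Esco1, lay nearest 0 (-0.05, 95% interval -0.41 to 0.31, adjusted p = 0.81). Of 6 markers of proliferation, 5 were called higher at P5, led by Top2a (-6.06), and the median was -4.95. Pcna, a DNA replication and repair clamp, was the exception, with 264, 312 and 334 FPKM at P5 and 368, 431 and 362 at P30 (0.35, 95% interval 0.06 to 0.64, adjusted p = 0.0582).

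**Figure D4:**
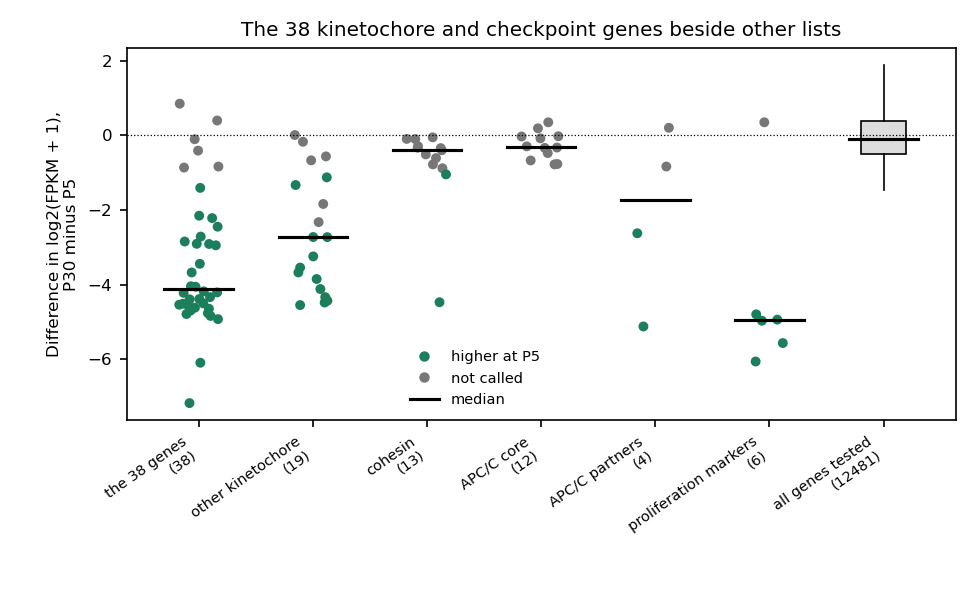
Difference in log2(FPKM + 1), P30 minus P5, on the vertical axis for the 38 genes, for other genes of the pathway by list (APC/C is the anaphase-promoting complex) and for all 12481 genes tested, with the number of genes in parentheses. Points are genes, horizontal bars are medians, and the box and whiskers for all genes span percentiles 25 to 75 and 5 to 95. Medians run from -4.95 for proliferation markers and -4.12 for the 38 genes to -0.31 for the APC/C core.

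The 32 genes called moved together between the P5 isolations as well. P5 replicate 3 was the highest in 30 of the 32 and replicate 1 the lowest in 31, against 33.3% and 31.2% of all genes tested without ties. The order of replicate 3 above 2 above 1 was found in 30 of 32 genes (93.8%) and in 19.6% of all genes tested. Sums over related lists had the same order, at 822, 1121 and 1359 FPKM in P5 replicates 1, 2 and 3 for the proliferation markers and 625, 769.8 and 858 for the other kinetochore genes. The median ratio of replicate 3 to replicate 1 was 1.67, with a range from 0.99 for Cenpp to 2.06 for Cenpe, whereas it was 0.98 over all genes tested and 0.91 over the 6 members not called. The median SD of log2(FPKM + 1) between P5 isolations was accordingly 0.38 for the 32 genes and 0.13 for all genes tested. Since the genes share 3 isolations, they are not separate observations of this order.

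Markers of other cell types differed between the same isolations. Summed over 7 genes of pericytes and smooth muscle (Pdgfrb, Rgs5, Cspg4, Notch3, Acta2, Myh11 and Des), FPKM was 1571, 777 and 347 in P5 replicates 1, 2 and 3, the reverse of the order of the members. Haematopoietic markers summed to 754, 690 and 498 (6 genes), also in the reverse order. Fibroblast markers summed to 644, 405 and 832 (5 genes), while EC markers were at 15970, 16541 and 15677. None of these lists had a marker at 0 in all isolations. Their part in the order of the P5 isolations was not tested. At P30 the pericyte and smooth muscle sum was 1957, 6450 and 3717, the fibroblast sum 1405, 3175 and 1772 and the haematopoietic sum 793, 313 and 516, while the 32 genes summed to 131, 164 and 158. Of the 6 haematopoietic markers, Ptprc was called higher at P5 in the limma fit (-1.67, adjusted p = 0.000732) and 5 were not called. Ptprc was at 25.4, 27.7 and 28.3 FPKM at P5 and 7.97, 7.61 and 7.88 at P30. Summed melanocyte markers (Tyr, Dct, Mlana, Pmel and Tyrp1) were at 457, 118 and 97.0 FPKM in P5 replicates 1, 2 and 3. That order was also the reverse of the order of the members, and the part of these markers in it was not tested. At P30 they summed to 1251, 1118 and 119.9, falling from replicate 1 to replicate 3 as the RPE markers did. RPE and melanocytes were not told apart as sources of these values. Photoreceptor markers summed to 2.21 to 7.25 at P5 and 41.0 to 349 at P30, with Rcvrn at 0 at P5. The part of these cell types in the difference between the ages was not tested. With values scaled to the EC markers, 34 members were called higher at P5, against 1064 of 12465 genes tested. The same scaling gave 579 genes called higher at P30 and moved the median of all genes to -0.29.

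**Figure D5:**
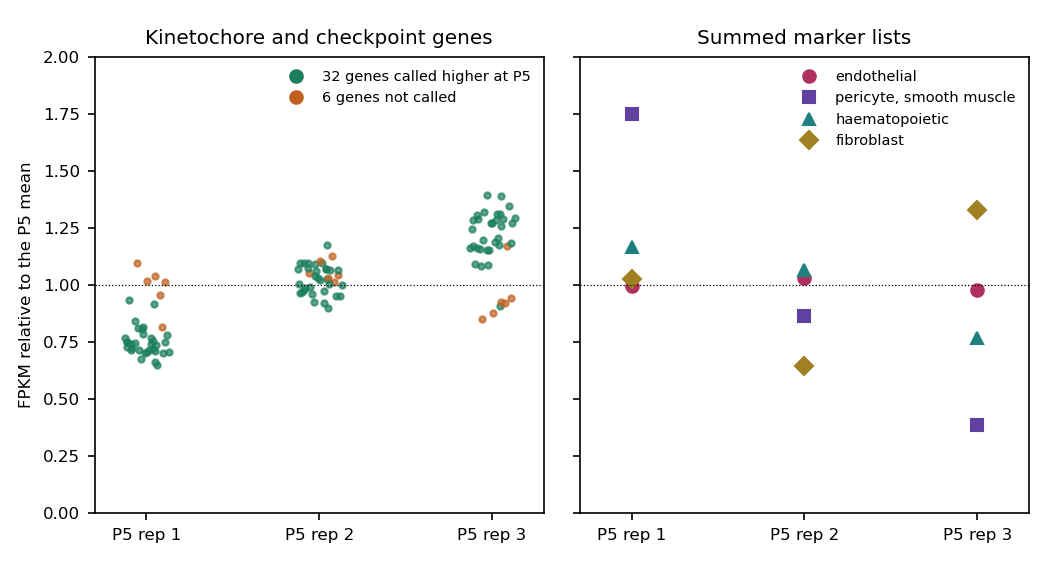
FPKM in each P5 isolation relative to the P5 mean, for the 38 genes (left, points are genes) and for the summed markers of 4 cell types (right). The 32 genes called are lowest in replicate 1 and highest in replicate 3 with few exceptions. The pericyte and smooth muscle sum and the haematopoietic sum both have the reverse order, and EC markers stay near 1.

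Overlapping transcripts touched few of the members. In the mm9 annotation, 7 of the 38 genes have an exon that overlaps another gene. Beside Cenpt, Cenpq and Cenpb, these are Cdc20 with Elovl1, Cdca8 with 9930104L06Rik, Mad1l1 with Gm16121 and Sgol2 with Kctd18, all on opposite strands, so that part of the P30 remainder of Cdc20 and Cdca8 cannot be told apart from reads of the partner.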

How the data were processed

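The authors extracted RNA directly after sorting and sequenced TruSeq libraries on a HiSeq2000. Per the labels, reads were processed with CASAVA 1.8.2 and FastQC and aligned to mm9 with TopHat, and the deposited FPKM values were computed with Cufflinks under GC and upper quartile normalization. Other versions and the annotation are not given in the sources used here. The authors' count test (DESeq2) needs read counts, which were not used here. Low FPKM values did not fall into steps (at most 4.82% of genes under FPKM 2 shared a log2 bin of 0.05 in any pair of isolations), so whole reads were not recovered, and no interval or floor from counts can be given.

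The fit was made with limma 3.58.1 (R 4.3.3) as lmFit and eBayes with a trend on log2(FPKM + 1), pseudocount 1, for the 12481 genes whose average reached 5 FPKM at either age, with Benjamini-Hochberg adjustment over all of them. Calls needed 2-fold or more between mean FPKM + 1 and an adjusted p below 0.01, the limits of the study. It was tested on simulated data. The p-values are two-sided and measure the spread between 3 independent isolations per age. Isolations with the same replicate number were not taken as pairs, since the labels do not say whether they were handled together. Values in every isolation were given, by role, for the members with the largest and smallest difference, the highest P5 mean and every member not called, and elsewhere by value or range. In other lists the largest fall and rise were named, and other genes after their values were seen. The members and lists were chosen with earlier results of these data known, and list counts and medians are descriptions without a test. Promoters came from the RefSeq table (GRCm38.p6), matched by symbol (Sgol1 as Sgo1, Sgol2 as Sgo2a), and were placed in mm9 by exact match. Alternatives were other pseudocounts, minimums, scalings and limits, a replicate block and each isolation left out.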

Additional observations from a re-analysis of the deposited data

How the results depend on the processing

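The count of members higher at P5 was 30 with a pseudocount of 0.1 (Aurka and Plk1 lost), 34 with EC marker scaling (Cenpc1 and Mad1l1 gained), and between 25 and 32 with 1 isolation left out. It was 27 without P5 replicate 2, where Cenpa, Cenpk, Cenpl, Cenpq and Cenpt were lost, and 25 without P5 replicate 3, where Aurka and Plk1 were lost as well. The lost members kept their sign, with adjusted p between 0.0101 and 0.0181. Members higher at P30 ranged from 0 to 1 with 1 isolation left out, the 1 being Pttg1 without P30 replicate 1. The median log2 difference of the 38 genes was -5.47 with a pseudocount of 0.1 and -2.53 with 5, since the scale compresses low values, and between -4.35 and -3.78 with 1 isolation left out. Under 18 alternatives, 667 values of single members kept their side of the limits, 14 lost it, 3 gained it and 0 changed sign, and 28 of 38 members kept their call under each alternative.

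Over all genes tested, EC marker scaling moved the split of calls from 726 higher at P5 and 735 at P30 to 1064 and 579 and the median of all genes to -0.29. The counts were 291 and 404 without P5 replicate 2 and 297 and 396 without P5 replicate 3, and 427 at P5 without P5 replicate 1. Deviations of isolations with the same number correlated at -0.06, -0.09 and -0.03, so the numbers were not taken to pair isolations. With the replicate block, 32 members were called higher at P5 and 0 at P30, with 524 and 585 of all genes. Depth is unknown, so no limit can be set for genes listed at 0.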
